A study of Mus musculus with 6 samples.

Results

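The 31 genes described here belong to the unfolded protein response of the endoplasmic reticulum (ER) and to the integrated stress response. They were chosen by symbol, as the stress sensors of the ER, the transcription factors these sensors act through, ER chaperones and target genes of the factor ATF4. All 31 symbols were found among the 24346 symbols measured, and 30 were tested because they averaged 0.5 FPKM or more over the 6 libraries. FPKM counts sequenced fragments relative to transcript length and library size, so levels can be compared between genes.

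Whole retinas were taken on postnatal day 12 from mice without Nrl (Nrl-/-), a factor needed for rod formation, so that most photoreceptors are cone-like. The 3 control libraries are Panky+/-;Panky-like+/-;Nrl-/-, so the controls too carry 1 mutant copy of each gene and no functional Nrl. The 3 triple-deficient libraries are Panky-/-;Panky-like-/-;Nrl-/-. Panky and Panky-like are named in the series title as transcriptional co-repressors that cones need, and the mice were littermates, in 3 pairs.

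Proteins that enter the ER must fold there, and unfolded protein is sensed by 3 membrane proteins. PERK (gene Eif2ak3) phosphorylates the initiation factor eIF2α, which lowers general translation and favours translation of ATF4. IRE1 (gene Ern1) splices the mRNA of Xbp1 into a form that encodes an active factor, and ATF6 is cut in the Golgi to release a factor that switches on chaperone genes. The integrated stress response is the part that runs through eIF2α and ATF4, and other kinases can start it without ER stress. Photoreceptors make large amounts of opsin in the ER and are known to be sensitive to failures of its folding. ATF4 is controlled by translation, XBP1 by splicing and ATF6 by cleavage, none of which a single mRNA level per gene shows.

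Sums of FPKM per library lay between 385962 and 396697. Sequencing depth, estimated from the most common ratio between libraries of a gene's low values, ran from 0.807 to 1.21 times that of control 1. The absolute depth is not in the tables. Triple-deficient 3 was the shallowest library and stood apart in base composition. Across genes, which are not independent, the Spearman correlation of its deviations with GC content was -0.59, against 0.07 to 0.30 in the other libraries. Both Panky genes were lower in all 3 triple-deficient libraries, though neither was at 0. Ankrd33b, taken to be Panky-like, was at 33.8 ± 1.45 FPKM in the controls and 1.502 ± 0.26 FPKM in the triple-deficient retinas (SD, n = 3). Ankrd33, which is Panky, was at 106 ± 2.97 and 55.6 ± 4.66 FPKM, so that Ankrd33 kept 52.2% of its control level, and both were called. Nrl, labelled as lacking in all 6 libraries, was at 49.2, 38.3 and 45.0 FPKM in the controls and at 52.6, 51.3 and 53.7 FPKM in the triple-deficient libraries, so transcripts of the gene were still counted (limma adjusted p = 0.861). The tables do not show which part of a gene the fragments cover. Cone markers summed to 4757 to 5320 FPKM per library over 6 genes, and 6 rod markers to 282 to 394 FPKM.

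Promoter sequences show which control elements the genes share. The genes were picked by symbol as known members and targets of these pathways, some of which are known through these elements, so the shares below are a description and not independent of the choice. RefSeq promoter windows of build GRCm38.p6, from 250 bases before to 50 after the annotated start, were matched for 28 of the 31 genes. They were searched on both strands for 3 elements. The ER stress response element, bound by ATF6 with the factor NF-Y, was taken as CCAAT, 9 bases of any kind and CCACG. Its second form was taken as ATTGG, 1 base and CCACG. The core of the C/EBP-ATF response element, which ATF4 dimers bind, was taken as TGATG, 1 base and AA. No matches of different elements overlapped in these genes. A match describes the letters only, not a bound site.

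The ER stress response element was found in 5 of 9 matched genes of ER folding and degradation (Creld2, Dnajc3, Hsp90b1, Hspa5 and Pdia6) and in no gene of the other groups. Among all 27025 genes with a promoter window, 37 held it. Counted by window the share was 0.119% of 32851, as a gene can have several windows. The second form was found in Herpud1 alone among the 28 genes, against 12 of all 27025 genes and 0.0365% of all windows. The windows below are shown because they carry these matches, which are in capitals. Hsp90b1 holds 2 matches, at 212 to 194 and 107 to 89 bases before the start. Creld2 and the nearer match of Hsp90b1 have the element on the opposite strand, so these capitals read as the reverse complement. They lie at chr2:34772005-34772063 (plus strand) for Hspa5, chr10:86705618-86705676 and chr10:86705513-86705571 (minus) for Hsp90b1, chr14:118937807-118937865 (plus) for Dnajc3, chr12:17266471-17266529 (plus) for Pdia6, chr15:88819500-88819558 (plus) for Creld2 and chr8:94386357-94386407 (plus) for Herpud1.
Hspa5: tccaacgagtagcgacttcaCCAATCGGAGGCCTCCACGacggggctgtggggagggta
Hsp90b1, farther match: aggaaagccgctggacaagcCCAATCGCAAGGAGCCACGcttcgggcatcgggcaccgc
Hsp90b1, nearer match: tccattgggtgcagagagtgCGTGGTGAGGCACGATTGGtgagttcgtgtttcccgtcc
Dnajc3: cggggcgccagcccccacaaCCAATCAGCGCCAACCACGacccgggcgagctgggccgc
Pdia6: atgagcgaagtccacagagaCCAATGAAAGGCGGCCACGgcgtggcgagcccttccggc
Creld2: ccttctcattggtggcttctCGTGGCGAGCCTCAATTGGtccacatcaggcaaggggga
Herpud1: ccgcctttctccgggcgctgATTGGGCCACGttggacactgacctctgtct

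The core of the C/EBP-ATF element was found in 9 of the 28 matched genes, namely Asns, Atf3, Chac1, Fgf21, Herpud1, Nupr1, Slc7a11, Trib3 and Vldlr. It was in 1219 of all 27025 genes with a promoter window, and in 3.97% of all windows. Slc7a11 had 2 matches, facing each other at 66 to 59 and 47 to 40 bases before the start, and the others had 1. The 4 windows below are shown as examples, with the matches in capitals. They lie at chr3:50443633-50443699 (minus strand) for Slc7a11, chr6:7693210-7693252 (minus) for Asns, chr2:119351029-119351076 (plus) for Chac1 and chr7:126625553-126625600 (minus) for Nupr1.
Slc7a11: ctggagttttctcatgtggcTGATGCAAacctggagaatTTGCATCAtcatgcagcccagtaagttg
Asns: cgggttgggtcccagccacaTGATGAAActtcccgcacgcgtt
Chac1: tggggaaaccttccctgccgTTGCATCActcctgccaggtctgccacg
Nupr1: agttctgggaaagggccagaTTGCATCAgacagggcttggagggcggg

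**Figure D1:**
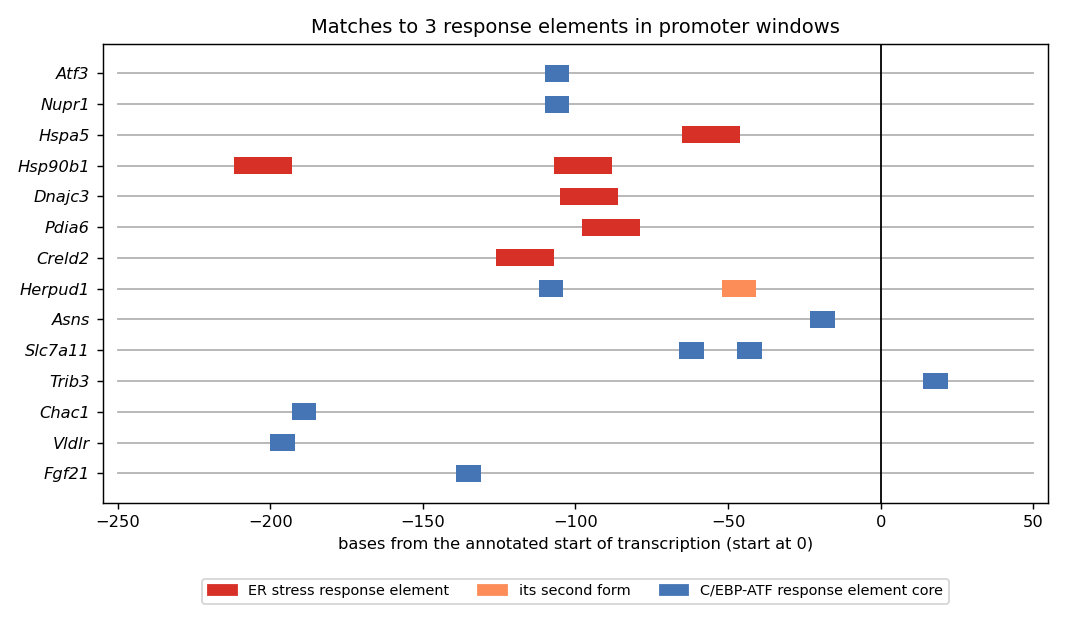
Positions of matches to the ER stress response element (red), its second form (orange) and the core of the C/EBP-ATF element (blue) in the 14 genes with a match; the horizontal axis is distance in bases from the annotated start, and each grey line is a searched window. Matches to the ER stress response element appear in 5 genes of ER folding, and Slc7a11 carries 2 matches to the C/EBP-ATF core.

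The main comparison asks whether retinas without Panky and Panky-like differ from controls in these stress genes. None of the 30 tested genes passed the threshold (limma, adjusted over all 14325 genes tested). Slc7a11 passed only when triple-deficient 1 was left out, the triple-deficient library whose Slc7a11 level lay among the controls. Leaving out the contrary value makes a pass more likely, so that pass is no support for a difference. Of all genes tested 0.0279% were called, 0.00698% as higher and 0.0209% as lower in triple-deficient libraries. At an unadjusted p below 0.05 there was 1 gene, Slc7a11, against 5.09% of all genes tested. The control and triple-deficient values overlapped in all 30 genes, where 10.5% of all genes tested had groups that did not overlap (4.86% higher, 5.64% lower). The median log2 change of FPKM + 1, triple-deficient minus control, was 0.012 over the 30 genes and 0.0034 over all genes tested. Changes ran from -0.25 for Nupr1 to 0.57 for Slc7a11, and 18 of 30 were above 0, against 51.8% of all genes tested.

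For 29 of the 30 genes the 95% confidence interval stayed inside a 1.5-fold difference of FPKM + 1, higher or lower, a property of 96.8% of all genes tested. Slc7a11 was the exception. For genes at a few FPKM or less, such as Atf3, Trib3 or Gdf15, an interval on this scale allows a larger fold change of FPKM. The retina was sampled whole, so fewer cells of a type and less RNA per cell cannot be told apart in any of these values.

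**Figure D2:**
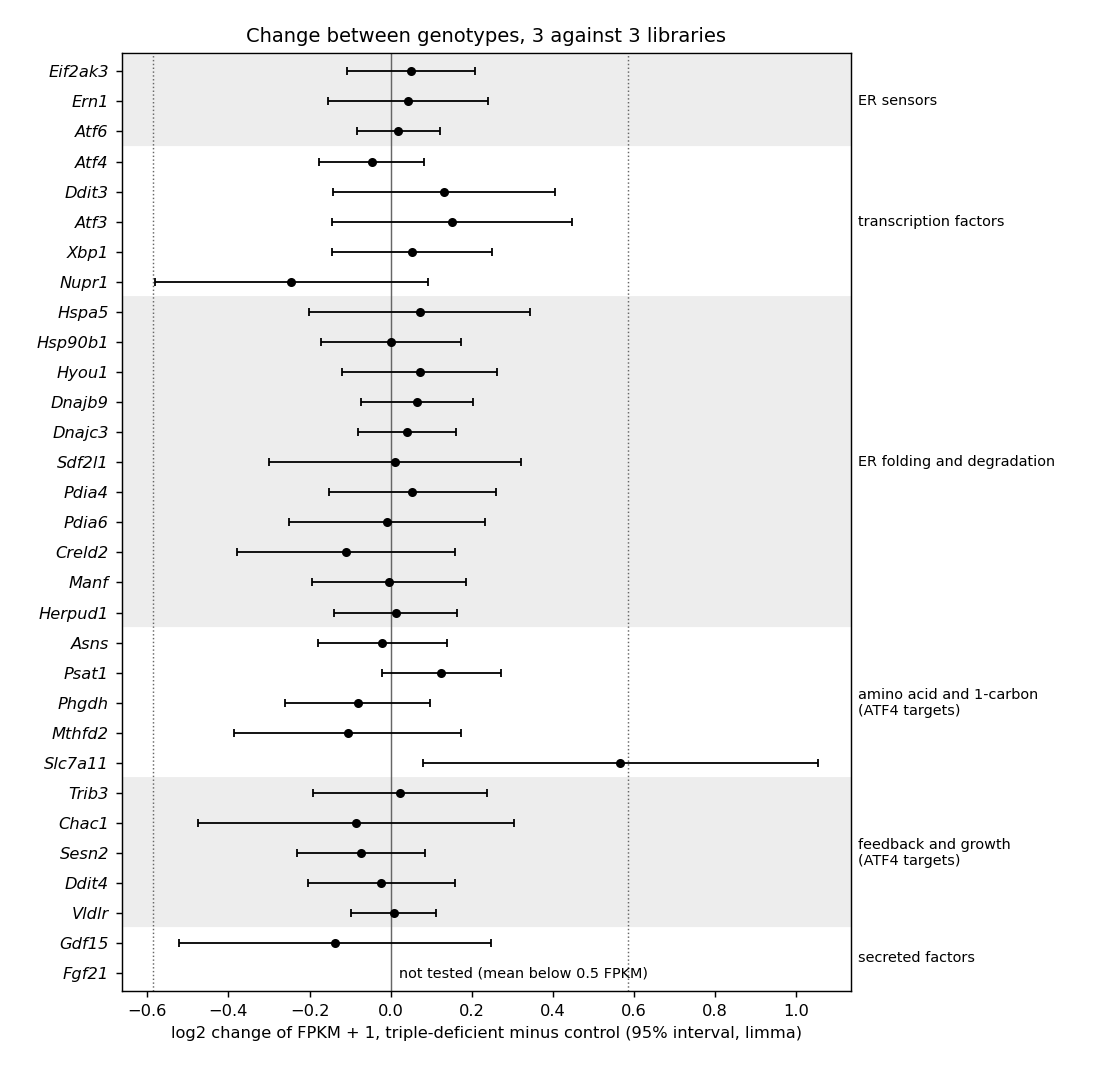
Log2 change of FPKM + 1 (triple-deficient minus control, 3 against 3 libraries) for each gene, with 95% confidence intervals from limma; dotted lines mark 1.5-fold. The intervals of 29 of 30 tested genes lie between the dotted lines, and that of Slc7a11 runs from 0.08 to 1.05.

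None of the sensors passed the test, and their groups overlapped. Eif2ak3, the kinase PERK, was at 14.6, 13.4 and 16.1 FPKM in controls 1, 2 and 3 and, in the same order, at 15.01, 15.6 and 14.9 FPKM in the triple-deficient libraries 1, 2 and 3. All triple-deficient values lay inside the range of the controls. The log2 change of Eif2ak3 was 0.05 (SE 0.069, limma adjusted p = 0.962), and it was -0.0099 without control 2 and 0.11 without control 3. Ern1, the kinase and ribonuclease IRE1, was at 7.59, 8.22 and 6.35 FPKM in the controls and at 7.75, 7.41 and 7.65 FPKM in the triple-deficient libraries. Its lowest and its highest value were both controls (log2 change 0.04, SE 0.086, limma adjusted p = 0.972). Without control 3 the change of Ern1 turned to -0.05, and without control 2 it was 0.11.

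Atf6, the sensor that is itself a membrane-bound transcription factor, had the most even levels of the 3 sensors. It was at 20.3 FPKM in each control and at 20.5, 20.1 and 21.1 FPKM in the triple-deficient libraries. The interval of its log2 change ran from -0.08 to 0.12 (limma adjusted p = 0.977). The 3 sensors had a median log2 change of 0.04, which was 0.020 without control 2 and 0.019 without control 3.

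Among the transcription factors, Atf4 mRNA was the most abundant. Atf4, the effector of the integrated stress response, was at 207, 190 and 217 FPKM in the controls and at 199.6, 196 and 198 FPKM in the triple-deficient libraries. The triple-deficient values lay close together and inside the control range (log2 change -0.05, SE 0.057, limma adjusted p = 0.959). The change of Atf4 was -0.10 without control 2 and -0.0029 without control 3. Xbp1, the factor activated by IRE1, was at 56.4, 46.9 and 58.3 FPKM in the controls and at 53.0, 60.0 and 54.4 FPKM in the triple-deficient libraries. Control 2 was the lowest library and triple-deficient 2 the highest (log2 change 0.05, SE 0.086, limma adjusted p = 0.966). The change of Xbp1 turned to -0.04 without control 2 and was 0.11 without control 3. The 5 factors had a median log2 change of 0.05, which turned to -0.04 without control 2. The value of Xbp1 does not separate its spliced from its unspliced form.

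Ddit3 encodes CHOP, a factor induced by ATF4 that is tied to cell death in prolonged ER stress. It was at 50.4, 42.7 and 61.8 FPKM in the controls and at 52.0, 56.3 and 60.0 FPKM in the triple-deficient libraries. Control 2 was lowest and control 3 highest, and the 3 triple-deficient libraries lay between them. The log2 change of Ddit3 was 0.13, with an interval from -0.14 to 0.41 (limma adjusted p = 0.958). It was 0.0050 without control 2 and 0.27 without control 3. In what follows, a pair of means with no group named gives the controls and then the triple-deficient libraries. Atf3, a stress-induced factor of the same family as ATF4, was near the low end of the group at 1.70 ± 0.48 and 1.98 ± 0.22 FPKM (SD, n = 3). Nupr1, a small chromatin protein induced in stress, was at 2.01 ± 0.47 and 1.54 ± 0.39 FPKM (SD, n = 3). Its log2 change of -0.25 was the lowest of the 30 genes (SE 0.147, limma adjusted p = 0.946), and the groups overlapped, with control 3 and triple-deficient 1 both at 1.59 FPKM.

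**Figure D3:**
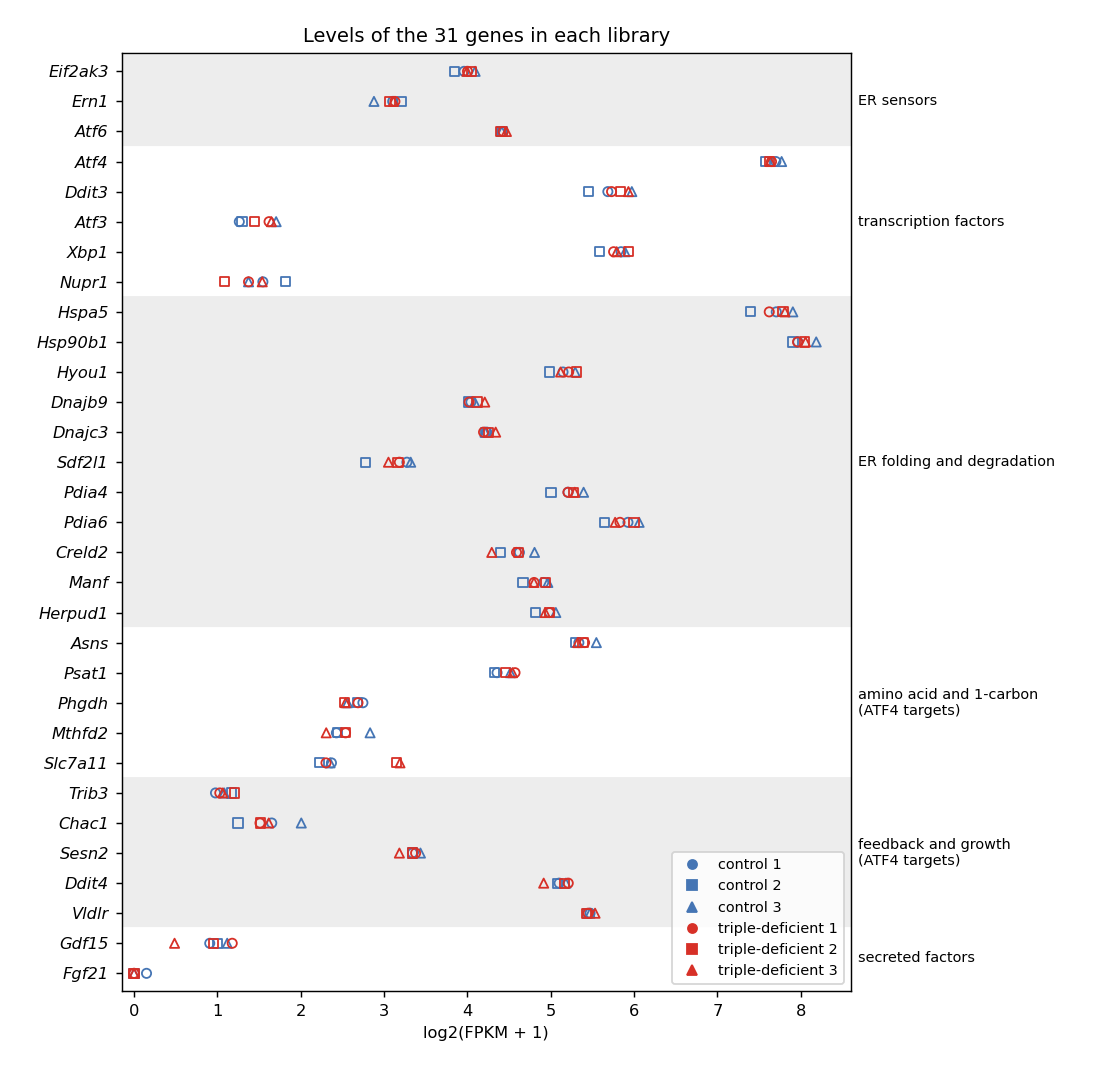
Level of each of the 31 genes as log2(FPKM + 1) in the 3 control (blue) and 3 triple-deficient (red) libraries, ordered by role; symbols give the library number. Hsp90b1, Hspa5 and Atf4 are the most abundant, Fgf21 is listed at 0 in 5 libraries, and blue and red symbols overlap in every gene.

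Hspa5 and Hsp90b1 stood above the other genes of ER folding and degradation. Hspa5 encodes BiP, the chaperone that also keeps the 3 sensors inactive. It was at 208, 167 and 239 FPKM in the controls and at 196, 219.6 and 223 FPKM in the triple-deficient libraries. The triple-deficient libraries were inside the control range, which ran from control 2 to control 3. The log2 change of Hspa5 was 0.07 (SE 0.119, limma adjusted p = 0.966). It was -0.07 without control 2 and 0.19 without control 3. Hsp90b1, the ER member of the HSP90 chaperones, was at 259 ± 27.1 and 259 ± 9.18 FPKM (SD, n = 3), a log2 change of 0.0012.

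The partners of BiP were at lower levels. Hyou1, a large chaperone and exchange factor for BiP, was at 34.4 ± 3.78 and 36.1 ± 2.42 FPKM (SD, n = 3). Dnajb9 and Dnajc3, co-chaperones of BiP in the ER lumen, were at 15.5 ± 0.41 and 17.6 ± 0.13 FPKM in the controls and at 16.3 ± 1.13 and 18.2 ± 0.98 FPKM in the triple-deficient retinas (SD, n = 3). Sdf2l1, which works with ER co-chaperones, was at 7.83 ± 1.73 and 7.78 ± 0.43 FPKM (SD, n = 3). Of these 4 genes, Dnajc3 varied least, with an interval of its log2 change from -0.08 to 0.16, and Sdf2l1 most, from -0.30 to 0.32.

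Pdia4 and Pdia6, which form and rearrange disulfide bonds, were at 36.0 ± 4.98 and 58.1 ± 8.498 FPKM in the controls and at 37.2 ± 1.13 and 57.5 ± 4.86 FPKM in the triple-deficient retinas (SD, n = 3). Manf, an ER protein that can be secreted and act as a neurotrophic factor, was at 27.9 ± 3.11 and 27.8 ± 1.63 FPKM (SD, n = 3). Herpud1, which takes part in the degradation of ER proteins, was at 30.1 ± 2.68 and 30.3 ± 0.62 FPKM (SD, n = 3). Creld2, an ER protein with EGF-like domains, was at 23.6, 20.04 and 27.0 FPKM in the controls and at 23.1, 23.4 and 18.6 FPKM in the triple-deficient libraries. Triple-deficient 3 was its lowest library, and the change was -0.11 on the log2 scale (SE 0.117, limma adjusted p = 0.959). It was -0.22 without control 2, -0.012 without control 3 and -0.0085 without triple-deficient 3.

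The 11 genes of ER folding and degradation had a median log2 change of 0.012, with 8 above 0 and 3 below. That median turned to -0.06 without control 2 and was 0.08 without control 3, and no gene of the group passed in either case. Creld2 and Atf4 lie on chromosome 15, as do both targeted genes, at 12.3 and 20.9 Mb from Ankrd33. Whether sequence linked to the mutant alleles plays a part in their levels was not tested.

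In 10 of the 11 ER folding genes the range among the controls exceeded the size of the change between genotypes. This also held for 82.9% of all genes tested. Control 2 was the lowest of the 6 libraries in 9 of the 11 genes, and control 3 was the highest in 8 of 11. Over all genes tested control 2 was lowest in 14.3% and control 3 highest in 18.9%. Both held at once for 7 of the 11 genes, against 3.54% of all genes tested. These genes summed to 712, 627 and 805 FPKM in controls 1, 2 and 3 and to 693, 747 and 733 FPKM in the triple-deficient libraries 1, 2 and 3. In all 3 triple-deficient libraries the sum thus lay between those of controls 2 and 3. Hspa5 and Hsp90b1 made up most of each sum, so it does not describe every gene. Creld2, for example, was lower in triple-deficient 3 than in control 2. These counts were made after the pattern was seen, so they are a description with no test.

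The step from control 2 to control 3 differed among the genes. It was 1.54-fold for Sdf2l1, 1.43-fold for Hspa5, 1.34-fold for Pdia6 and Creld2 and 1.32-fold for Pdia4. Dnajb9 and Dnajc3 stood apart, at 1.05 and 0.993 times the level of control 2. Outside the ER folding group, Chac1 was 2.2 times as high in control 3 as in control 2, Atf3 1.56 times and Ddit3 1.45 times. Ern1 and Nupr1 went the other way, at 0.773 and 0.632 times the level of control 2. Over all 30 genes, 27 had a control range larger than the change between genotypes, against 82.9% of all genes tested.

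**Figure D4:**
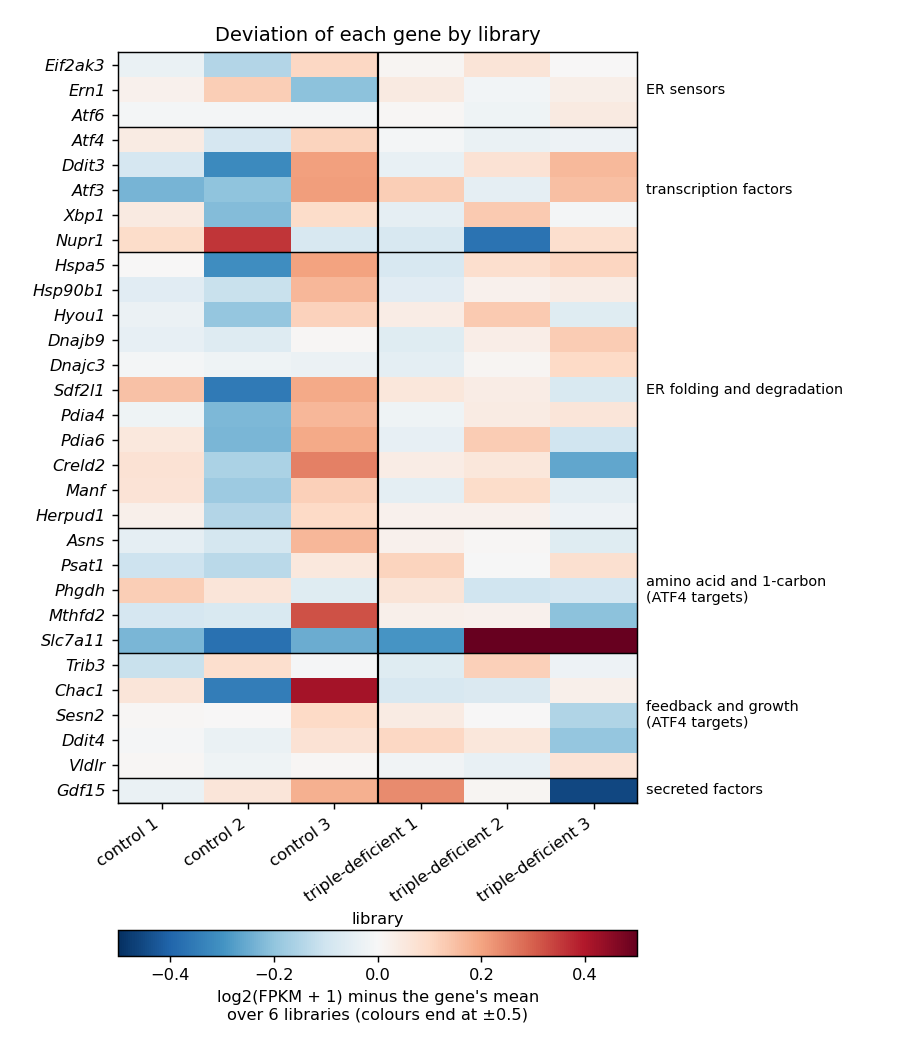
Deviation of log2(FPKM + 1) from the gene's mean over the 6 libraries, for the 30 tested genes (lines, by role) in each library (columns); red is above and blue below the mean, and colours end at ±0.5. Control 2 is below the mean and control 3 above it in most genes of ER folding, and Slc7a11 is above its mean in triple-deficient 2 and 3.

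The same order of libraries appeared in part among genes outside the 31. Of 19 other tested genes of ER folding, control 3 was highest in 13 and control 2 lowest in 6. Calr, which encodes the lectin chaperone calreticulin, was at 301, 291 and 386 FPKM in controls 1, 2 and 3 and, in the same order, at 332, 337 and 299.5 FPKM in the triple-deficient libraries 1, 2 and 3. Of 20 other ATF4 targets, control 3 was highest in 7 and control 2 lowest in 10. Of 15 genes of ER-associated degradation, control 3 was highest in 2 and control 2 lowest in 6. Of 14 tested genes outside the 31 whose promoter window held the ER stress response element, control 2 was lowest in 6 and control 3 highest in 7. Their median log2 change between genotypes was -0.015 and none was called.

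Controls 2 and 3 had similar depth, at 1.11 and 1.03 times that of control 1, and their deviations correlated with GC content at Spearman 0.11 and 0.21 across genes. The 6 microglial markers summed to 32.1 FPKM in control 2, the lowest of the libraries, and to 39.4 FPKM in control 3, the highest, with 34.2 to 37.0 FPKM in the other libraries. The most abundant were C1qa, at 10.2 and 13.5 FPKM in controls 2 and 3, and C1qb, at 9.93 and 12.0 FPKM. P2ry12 alone of the 6 went the other way, at 2.02 and 1.80 FPKM. Cx3cr1 was highest in control 1 and Aif1 in triple-deficient 3. None of the 6 microglial markers was at 0 in all libraries, and their part in the pattern was not tested. The 6 markers of Müller glia summed to 1845 and 1792 FPKM in controls 2 and 3, and the 6 cone markers to 5320 and 5314 FPKM. The 6 markers of the retinal pigment epithelium summed to 28.9 and 20.4 FPKM in controls 2 and 3.

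ATF4 target genes formed 3 sets, of which that of amino acid and one-carbon metabolism had a median log2 change of -0.021 (0.06 without control 3). In it, Asns, the enzyme that makes asparagine, was at 41.1 ± 4.03 FPKM in the controls and 40.4 ± 1.24 FPKM in the triple-deficient retinas (SD, n = 3). Psat1 and Phgdh, enzymes of serine synthesis, were at 20.1 ± 1.52 and 5.34 ± 0.41 FPKM in the controls and at 22.0 ± 0.94 and 4.997 ± 0.38 FPKM in the triple-deficient retinas (SD, n = 3). Their log2 changes were 0.12 and -0.08 (limma adjusted p = 0.943 and 0.958). Mthfd2, a mitochondrial enzyme of folate metabolism, was at 4.97 ± 0.995 and 4.51 ± 0.49 FPKM (SD, n = 3). Its highest value, 6.12 FPKM, was that of control 3.

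Slc7a11 had the largest difference of the 30 genes. It encodes xCT, which exchanges glutamate for cystine at the cell surface and so supplies the precursor of glutathione. It was at 4.16, 3.67 and 4.10 FPKM in controls 1, 2 and 3 and, in the same order, at 3.93, 7.87 and 8.13 FPKM in the triple-deficient libraries 1, 2 and 3. Triple-deficient 1 lay among the controls, while triple-deficient 2 and 3 were 1.98 and 2.04 times the control mean. The log2 change was 0.57 (SE 0.212, interval 0.08 to 1.05, unadjusted p = 0.0277, limma adjusted p = 0.906). Without triple-deficient 1 the log2 change was 0.86 and passed (limma adjusted p = 0.0246). That fit leaves out the triple-deficient library that lay among the controls, so its pass is no support for a difference. Over the 14 alternatives the log2 change ran from 0.41 to 0.86, and the limma adjusted p from 0.0246 to 0.9999, passing in that 1 case. Without triple-deficient 3, the library that stood apart in base composition, the log2 change was 0.41, and with the trends of GC content and length removed it was 0.52.

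Slc3a2, the heavy chain that carries xCT to the membrane, was at 45.4, 43.0 and 44.4 FPKM in the controls and at 43.0, 42.9 and 40.7 FPKM in the triple-deficient libraries, all below the controls by a narrow margin (log2 change -0.07, limma adjusted p = 0.946). The nearest tested genes on chromosome 3 are Pcdh18, a protocadherin at 608 kb, and Elf2, an ETS factor at 754 kb. Pcdh18 was at 4.25, 4.16 and 4.92 FPKM in the controls and at 5.06, 4.58 and 5.06 FPKM in the triple-deficient libraries. Elf2 was at 13.9, 13.3 and 13.5 FPKM in the controls and at 12.7, 14.1 and 14.04 FPKM in the triple-deficient libraries. Triple-deficient 2 and 3 were the highest for Elf2 as for Slc7a11, and triple-deficient 1 was the lowest, but the whole range of Elf2 was from 12.7 to 14.1 FPKM. Over the 12 tested genes within 2 Mb, log2 changes ran from -0.21 to 0.22 and none was called.

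Slc7a11 is also a target of NRF2, the factor of the oxidative stress response, and 7 NRF2 target genes were read after the values of Slc7a11 were seen. Hmox1, heme oxygenase, was at 1.96, 2.09 and 2.34 FPKM in the controls and at 2.31, 3.28 and 2.02 FPKM in the triple-deficient libraries, so its highest value was that of triple-deficient 2 alone. Gclm and Gclc, subunits of the enzyme that starts glutathione synthesis, were at 9.51 ± 0.40 and 21.1 ± 1.23 FPKM in the controls and at 9.58 ± 0.48 and 21.0 ± 0.37 FPKM in the triple-deficient retinas (SD, n = 3). Txnrd1, Srxn1, Gsr and Nqo1 had log2 changes of 0.0073, -0.08, -0.018 and -0.16, and none of the 7 passed (limma adjusted p of at least 0.943). Triple-deficient values lay below all controls for Srxn1 and Nqo1, where 5.64% of all genes tested had such lower groups.

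Markers of the retinal pigment epithelium, a tissue that adheres to the retina in dissection, summed to 20.4 to 30.7 FPKM in the controls and to 12.7 to 19.2 FPKM in the triple-deficient libraries over 6 genes. In 4 of the 6 the triple-deficient values lay below all controls, where 5.64% of all genes tested had such lower groups, and none of the 6 was called or at 0 in all libraries. In triple-deficient 1, 2 and 3 the sum was 12.7, 14.2 and 19.2 FPKM, where Slc7a11 was at 3.93, 7.87 and 8.13 FPKM. In controls 1, 2 and 3 the sum was higher, at 30.7, 28.9 and 20.4 FPKM, with Slc7a11 at 4.16, 3.67 and 4.10 FPKM. The part of the pigment epithelium in the level of Slc7a11 was not tested.

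**Figure D5:**
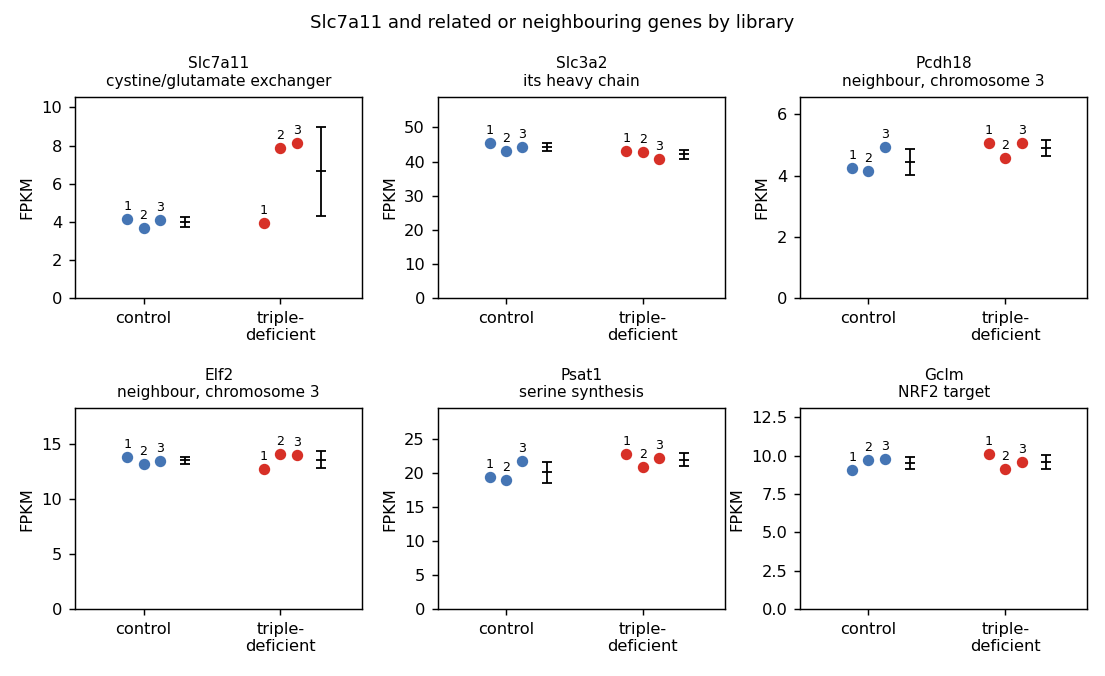
FPKM of Slc7a11, its partner Slc3a2, the neighbouring genes Pcdh18 and Elf2, the serine synthesis gene Psat1 and the NRF2 target Gclm; points are libraries with their numbers, and bars beside them give mean ± SD (n = 3). Slc7a11 is near 8 FPKM in triple-deficient 2 and 3 and near 4 FPKM in the other libraries. In the panel of Elf2 the same 2 libraries are highest, within a range of 12.7 to 14.1 FPKM.

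The set of ATF4 targets that feed back on stress or growth had a median log2 change of -0.023 (0.012 without control 3 and -0.07 without triple-deficient 1). Trib3, a pseudokinase that restrains ATF4, was at 1.11 ± 0.14 and 1.15 ± 0.14 FPKM (SD, n = 3). Sesn2 and Ddit4, inhibitors of mTORC1 signalling, were at 9.36 ± 0.40 and 33.8 ± 1.34 FPKM in the controls and at 8.86 ± 0.69 and 33.3 ± 3.665 FPKM in the triple-deficient retinas (SD, n = 3). In both, triple-deficient 3, the library that stood apart in base composition, was the lowest, at 8.08 and 29.2 FPKM. With the trends of GC content and length removed, the log2 change of Sesn2 went from -0.07 to -0.013. That of Ddit4 turned from -0.02 to 0.04. Vldlr, a lipoprotein receptor that is also found on neurons, was at 43.0 ± 0.51 and 43.3 ± 1.72 FPKM (SD, n = 3), and its interval ran from -0.10 to 0.11.

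Chac1, which degrades glutathione and is among the more ATF4-dependent genes, was at 2.14, 1.37 and 3.02 FPKM in the controls and at 1.85, 1.87 and 2.07 FPKM in the triple-deficient libraries. Its whole range was set by controls 2 and 3. The log2 change was -0.09 (SE 0.170, limma adjusted p = 0.971), and it was -0.28 without control 2 and 0.10 without control 3.

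The secreted factors were at the floor of the measurement. Gdf15, a stress hormone, was at 0.877, 1.001 and 1.17 FPKM in the controls and at 1.26, 0.932 and 0.4004 FPKM in the triple-deficient libraries. Its highest and lowest values were both triple-deficient (log2 change -0.14, SE 0.168, limma adjusted p = 0.959). The change of Gdf15 was -0.32 with a pseudocount of 0.1, -0.29 without triple-deficient 1 and -0.0077 with the trends of GC content and length removed, and it turned to 0.06 without triple-deficient 3. Fgf21, an endocrine factor that ATF4 induces in liver, was listed at 0.109 FPKM in control 1 and at 0 in the other 5 libraries, and it was not tested.

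A further 107 genes of these pathways were listed by role, of which 106 were found and 105 tested. None was called (limma), 2 had an unadjusted p below 0.05, and 9 had groups that did not overlap, 8.57% of them against 10.5% of all genes tested. Of the 9, Aldh1l2, Cars and Nploc4 were higher and Bloc1s1, Cebpb, Ppp1r15a, Ppp1r15b, Slc3a2 and Sqstm1 lower in triple-deficient libraries. Their median log2 change was 0.0031. In the following, 2 genes per list are given, those with the smallest p.

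Of the eIF2 kinases, phosphatase subunits and exchange factor subunits, 12 were tested. Ppp1r15b, the constitutive regulatory subunit of the eIF2α phosphatase, was at 15.7 ± 0.17 and 14.5 ± 0.55 FPKM (SD, n = 3). Its triple-deficient libraries lay below all controls (log2 change -0.11, SE 0.050, limma adjusted p = 0.943). Eif2b3, a subunit of the eIF2 exchange factor, had a log2 change of -0.07 with overlapping groups. In IRE1 and ATF6 signalling (10 tested), Bloc1s1, an mRNA that IRE1 is known to cleave, was at 71.8 ± 1.81 and 68.0 ± 2.02 FPKM (SD, n = 3), in groups that did not overlap (log2 change -0.08, limma adjusted p = 0.946). Mbtps2, the site 2 protease that releases ATF6, had a log2 change of 0.06.

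Among 19 other genes of ER folding, Dnajb11 and Txndc11, a BiP co-chaperone and a thioredoxin-like protein, had log2 changes of -0.07 each. In ER-associated degradation (15 tested), Edem2, which trims mannose from misfolded glycoproteins, had -0.13, and Nploc4, a cofactor of the ATPase VCP, had 0.06 in groups that did not overlap. In translocation into the ER (13 tested), Spcs1, of the signal peptidase, and Sec61b, of the translocon, had 0.11 and -0.06. The limma adjusted p of these 6 genes was at least 0.943.

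Cebpb, a bZIP factor that pairs with ATF4, had the largest change of the 105 genes. It was at 1.08, 1.09 and 0.754 FPKM in the controls and at 0.538, 0.427 and 0.460 FPKM in the triple-deficient libraries. All 3 triple-deficient values lay below all controls. Its log2 change was -0.42 (SE 0.102, unadjusted p = 0.0033), and it did not pass over all genes (limma adjusted p = 0.651). Nfe2l1, the other gene of the list of 5 partner factors given here, had -0.04. Cebpb is at a low level of about 1 FPKM or less, and the number of fragments behind its value is not known.

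Of 20 further ATF4 targets, Cars, the cysteinyl-tRNA synthetase, was at 22.8, 21.7 and 22.4 FPKM in the controls and at 24.5, 23.6 and 24.8 FPKM in the triple-deficient libraries. The triple-deficient libraries were all higher (log2 change 0.12, SE 0.046, unadjusted p = 0.0313, limma adjusted p = 0.915). Sqstm1, the autophagy receptor p62, was at 132 ± 3.67 and 122 ± 5.49 FPKM (SD, n = 3), also in groups that did not overlap but in the opposite direction (log2 change -0.11, limma adjusted p = 0.943). Among 11 other tRNA synthetases, Nars and Lars, for asparagine and leucine, had log2 changes of 0.10 and 0.06. The set had a median of 0.0063, and none had groups that did not overlap.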

How the data were processed

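Libraries were made from retinal RNA with a kit for stranded mRNA sequencing, per the labels' protocols. The authors deposited 1 table of FPKM values per library. TopHat2 2.1.1, Bowtie2 2.3.5.1, Cufflinks 2.2.1, Cuffdiff and build mm10 are listed in the submitters' processing notes, without roles. The gene annotation, the scaling and the treatment of multi-mapping reads were not given in the sources used here.

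Genotype was compared over all 6 libraries with limma 3.58.1 (R 4.3.3, mean-variance trend, two-sided) on log2(FPKM + 1), which understates changes of genes with low values. The filter was a mean FPKM of 0.5, which left 14325 genes, and Benjamini-Hochberg adjustment ran over all of these with a threshold of 0.05. The fit was run on simulated data with known changes. Their noise was drawn separately for each gene and library, so the GC trend of the real libraries was not part of them. The 14 alternatives were each library left out, a pseudocount of 0.1, a filter of 1 FPKM, no filter, no variance trend, median-of-ratios scaling, removal of GC and length trends, and the replicate number as a block with and without that removal. The design text gives 3 littermate pairs, but no label ties a library to an animal or a pair, so p-values measure the spread between libraries. Relative depth came from the most common ratio of a gene's values in a library and in control 1, both above 0 and below 0.3 FPKM. It assumes that this ratio sets 1 fragment against 1 fragment.

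The genes and lists were chosen with earlier results of these data known. Values in each library are given for Eif2ak3, Ern1, Atf6, Atf4, Xbp1, Ddit3 and Hspa5, and by rule for any other of the 31 with an unadjusted p below 0.05, a log2 change beyond 0.3, a call in an alternative or groups that do not overlap. Creld2, Chac1, Gdf15, Calr, Slc3a2, the chromosome 3 neighbours of Slc7a11 and the NRF2 targets were singled out after their values were seen. Of the further 107 pathway genes, the 2 with the smallest p per list are named by rule, and those whose groups do not overlap are listed. Dele1 and the marker Hbb-bt had no matching symbol. Coordinates are those of RefSeq for GRCm38.p6, the mm10 build.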

Additional observations from a re-analysis of the deposited data

How the results depend on the processing

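Over 14 alternatives, none of the 30 tested stress genes was called in 13, and 1 (Slc7a11) was called without triple-deficient 1. In that fit the triple-deficient value of Slc7a11 at the control level was left out. Stress genes called thus ranged from 0 to 1 over the fits that leave out 1 library, and all genes called from 3 to 11, with 7 without control 3, 10 without triple-deficient 1, 11 without triple-deficient 3 and 4 with all libraries. With no filter 2 genes were called; the cause was not tested. With the replicate number as a block 4 genes, 0 of the 30 stress genes and 0 of the other pathway genes were called. Same-numbered libraries' deviations correlated at 0.02, 0.11 and 0.07, not every library correlated best with its own number, no label ties a number to a litter, and the block changed no call of a stress gene. Signs of 11 of the 30 genes held in all alternatives, and 19 flipped in at least 1. How many fragments lie behind genes at low FPKM is not known, so what could be detected for Gdf15, Trib3, Atf3 and Cebpb is uncertain.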
